A study of Rattus norvegicus with 4 samples.

Results

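Oxidative phosphorylation genes were described in cultured rat microvessels. They were taken by gene name from the deposited count table: the protein genes of the mitochondrial genome (names beginning Mt-nd, Mt-co, Mt-atp or Mt-cyb) and the nuclear genes whose names begin as those of subunits of the 5 complexes do (Ndufa, Ndufb, Ndufc, Ndufs or Ndufv with a number, Sdha to Sdhd, Uqcr, Cox4 to Cox8, Atp5). In all, 103 of 23608 genes carried such a name, 13 of them mitochondrially encoded and 90 nuclear. Of the nuclear genes, 82 are by name a subunit or a copy of one, and 8 are assembly or associated factors or a pseudogene that the naming rule also takes in (Sdhaf1 to Sdhaf4, Atp5s, Atp5sl, Cox7a2l, Cox6c-ps1).

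The cells were wild-type primary vascular cells from rat subcutaneous connective tissue, grown as microvessels on a soft or a stiff extracellular matrix. Each matrix was used without and with A83-01, a small molecule that blocks TGF-beta type I receptor kinases, and the stated interest was in pericytes turning into myofibroblasts. Each of the 4 conditions is 1 library, so no condition has a replicate check. Every set of 4 values below is given in the order soft, soft with A83-01, stiff, stiff with A83-01. The sources used here do not give the stiffness, the inhibitor dose, the culture time or the number of animals. The codes that the labels give to the stiff libraries are built differently from those of the soft ones, and a difference of preparation cannot be told apart from the matrix.

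Oxidative phosphorylation joins electron transfer to the making of ATP in the inner mitochondrial membrane. Complex I (NADH dehydrogenase) and complex II (succinate dehydrogenase) pass electrons to ubiquinone, complex III (cytochrome bc1) passes them to cytochrome c and complex IV (cytochrome c oxidase) to oxygen. The ATP synthase, complex V, uses the resulting proton gradient. A few membrane-bound subunits are encoded by mitochondrial DNA, which is transcribed as long precursors that are cut into single messengers, and the other subunits, all of complex II among them, are encoded in the nucleus and imported.

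Total counts lay between 32271844 and 33416200 per library. Pericyte and smooth muscle markers were present in every library: the summed level of 8 pericyte and mural markers was 2613, 2067, 3625 and 4464 CPM (counts scaled to library size, here with trimmed mean of M-values, TMM), and that of 6 smooth muscle and myofibroblast markers 436, 155, 7307 and 4589. Endothelial markers, 9 of them measured, summed to 1775, 1791, 1399 and 2409 CPM, and none was at 0. Fibroblast markers, 6 in all, summed to 69128, 48769, 124973 and 42015 CPM, and 6 cell cycle markers to 291, 363, 395 and 793. The collagens Col1a1 (69475 CPM on stiff) and Col3a1 (52984 CPM) made up most of the fibroblast sum. Taken singly, 4 of the 6 fibroblast markers were lower on stiff than on soft and 2 higher, both without and with A83-01. Leukocyte (65.3 to 96.0 CPM), adipocyte (10.1 to 41.4), Schwann cell (10.1 to 15.5) and keratinocyte (2.20 to 2.69) markers were low throughout. The libraries are thus mixtures, in which fewer cells of a type and less RNA per cell cannot be told apart. The part of these markers in the results below was not tested.

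Mitochondrially encoded genes made up 4.72%, 6.35%, 3.86% and 5.59% of all counts. The share was higher with A83-01 than without on both matrices, and lower on stiff than on soft both without and with the inhibitor. The nuclear genes together held 0.622%, 0.699%, 0.606% and 0.781%. Since both sums come from the same library, their ratio does not depend on how libraries are scaled. It was 7.59 mitochondrially encoded counts per nuclear count on soft (95% exact binomial interval 7.55 to 7.62), 9.08 on soft with A83-01 (9.04 to 9.12), 6.36 on stiff (6.33 to 6.39) and 7.16 on stiff with A83-01 (7.13 to 7.18). The 4 intervals do not overlap, but they cover counting error only, since no molecular identifiers are named, and the spread between cultures was not measured. The libraries were made from messengers enriched with oligo(dT), and the part of that step or of RNA quality in this ratio was not tested. Relative to the nuclear genes, mitochondrially encoded messengers were thus most abundant on soft with A83-01 and least abundant on stiff without it.

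Per length, in FPKM, fragments scaled to transcript length and library size, the 13 mitochondrially encoded genes had a median of 2468 over their means across libraries, against 56.5 for the 84 nuclear genes that passed the expression minimum of 1 CPM in at least 1 library. Mt-co1, the catalytic subunit of complex IV, was the most abundant, at 8267, 10215, 7564 and 10665 FPKM. Mt-co2, which takes electrons from cytochrome c, read 5452, 7556, 4984 and 6866 FPKM, and Mt-cox3, the third mitochondrial subunit of that complex, 5274, 6962, 4091 and 5702 FPKM. Each of these 3 was higher in both libraries with A83-01 than in both without it. Mt-cyb, the cytochrome b of complex III, read 3969, 5191, 2919 and 4087 FPKM, and was lowest on stiff without the inhibitor, also in TMM-scaled CPM. Mt-co1 and Mt-co2 were lowest there in FPKM only. In TMM-scaled CPM both were lowest on soft without it, Mt-co1 at 15368.5 against 16650.3 on stiff and Mt-co2 at 4488 against 4857.

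The 7 mitochondrial genes of complex I encode subunits of its proton-pumping membrane arm. Mt-nd1 read 2023, 2804, 1516 and 2045 FPKM and Mt-nd2 2127, 3205, 1706 and 2835 FPKM. Mt-nd3, the least abundant of the 13, read 358, 520, 335 and 469 FPKM. All 3 were highest on soft with A83-01. Mt-nd4 read 1304, 1591, 808 and 1188 FPKM and Mt-nd4l 574, 746, 284 and 459 FPKM. In this pair both soft libraries lay above both stiff ones. Mt-nd5 read 787, 1066, 612 and 1040 FPKM. Mt-nd6, the only one encoded on the other strand of the mitochondrial genome, read 636, 957, 465 and 848 FPKM, and its reads cannot be separated from those of a transcript opposite it, as no strand-marking step is named. Of the ATP synthase genes, Mt-atp6, which lines the proton channel, read 6101, 8819, 4459 and 7381 FPKM. Mt-atp8, a small subunit at its side, read 3612, 6052, 1576 and 3234 FPKM, with both stiff libraries below both soft ones.

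**Figure D1:**
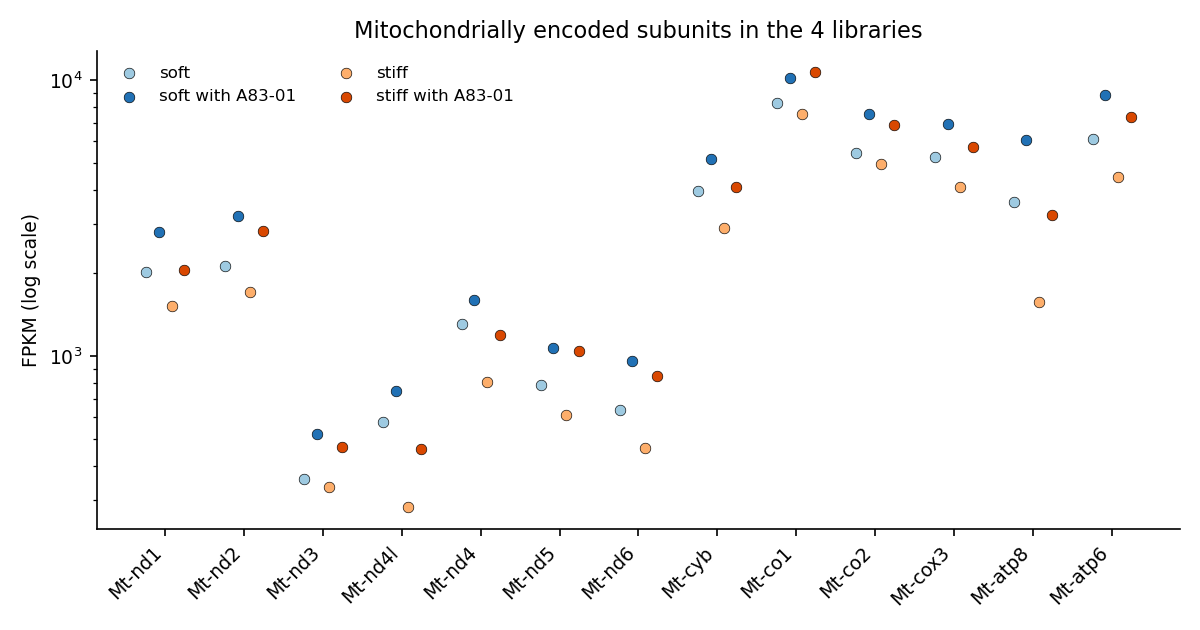
FPKM (log scale) of each of the 13 mitochondrially encoded genes in the 4 libraries, 1 point a library and no error bars because each condition has 1 library. Within each matrix the point with A83-01 lies above that without it for every gene, and Mt-co1 is highest at 7564 to 10665 FPKM.

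Libraries were compared in pairs by the log2 ratio of TMM-scaled CPM, with a prior count of 2, and a gene was counted as apart where the ratio reached 1.5-fold and the 95% conditional binomial interval excluded 1. With A83-01 on soft, all 13 mitochondrially encoded genes lay above 0, from 0.29 (Mt-nd4) to 0.75 (Mt-atp8), with a median log2 ratio of 0.48. On stiff, all 13 also lay above 0, from 0.13 (Mt-nd1) to 0.74 (Mt-atp8), with a median of 0.26. Over all 13634 genes tested the median was -0.0014 on soft and 0.02 on stiff. Apart at 1.5-fold on soft were Mt-nd2, Mt-nd6 and Mt-atp8, 3 of 13 higher and 0 lower, where 5.63% of all genes were higher and 5.96% lower. On stiff only Mt-atp8 was apart, 1 of 13, where 15% of all genes were higher and 9.98% lower. The direction over the 13 genes was shared by both matrices, and it held under every scaling tried, with a size mostly under 1.5-fold.

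Between matrices the mitochondrially encoded genes lay the other way. Stiff against soft, 10 of 13 were below 0, with a median of -0.17, where the median over all genes was 0.0005. With A83-01 in both libraries 12 of 13 were below 0, with a median of -0.32 against 0.01 over all genes. The genes above 0 without the inhibitor were Mt-co1 (0.12), Mt-co2 (0.11) and Mt-nd3 (0.15), each of which lies below 0 when libraries are scaled by total counts, and with the inhibitor Mt-co1 alone, at 0.0021. Apart at 1.5-fold in both pairs were Mt-atp8 and Mt-nd4l, both lower. That is 2 of 13 without the inhibitor, where 10.9% of all genes were higher and 15.6% lower, and 2 of 13 with it, where 13.5% were higher and 13.1% lower. These shares are near those of all genes, so the count is no result about mitochondrial genes.

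Mt-atp8 was 1.94-fold lower on stiff than on soft (interval 1.90 to 1.98) and 1.95-fold lower with A83-01 in both (1.92 to 1.98). Mt-nd4l was 1.71-fold lower (1.64 to 1.78) and 1.70-fold lower (1.64 to 1.75). Each of these genes overlaps the start of its neighbour on mitochondrial DNA and shares a messenger with it, Mt-atp8 with Mt-atp6 and Mt-nd4l with Mt-nd4. Within a library, Mt-atp8 had 17.7, 20.6, 10.6 and 13.1 counts per 100 of Mt-atp6, and Mt-nd4l had 9.50, 10.1, 7.57 and 8.32 per 100 of Mt-nd4. In both cases the share of the shorter gene was lower in both stiff libraries than in both soft ones. The lengths implied by the ratio of counts to FPKM were 254 bases for Mt-atp8 and 370 for Mt-nd4l, the shortest of the 13. The next, Mt-nd3 at 433, lay at 0.15 for stiff against soft, but below 0 there under total-count scaling. With A83-01 in both it also lay below 0, at 189 CPM on stiff and 219 CPM on soft. The sources used here do not say how reads of such overlapping genes were assigned, and the part of read assignment or fragment length in these ratios was not tested. Mt-co1 per 100 counts of Mt-cyb went the opposite way, at 282, 266, 350 and 353.

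**Figure D2:**
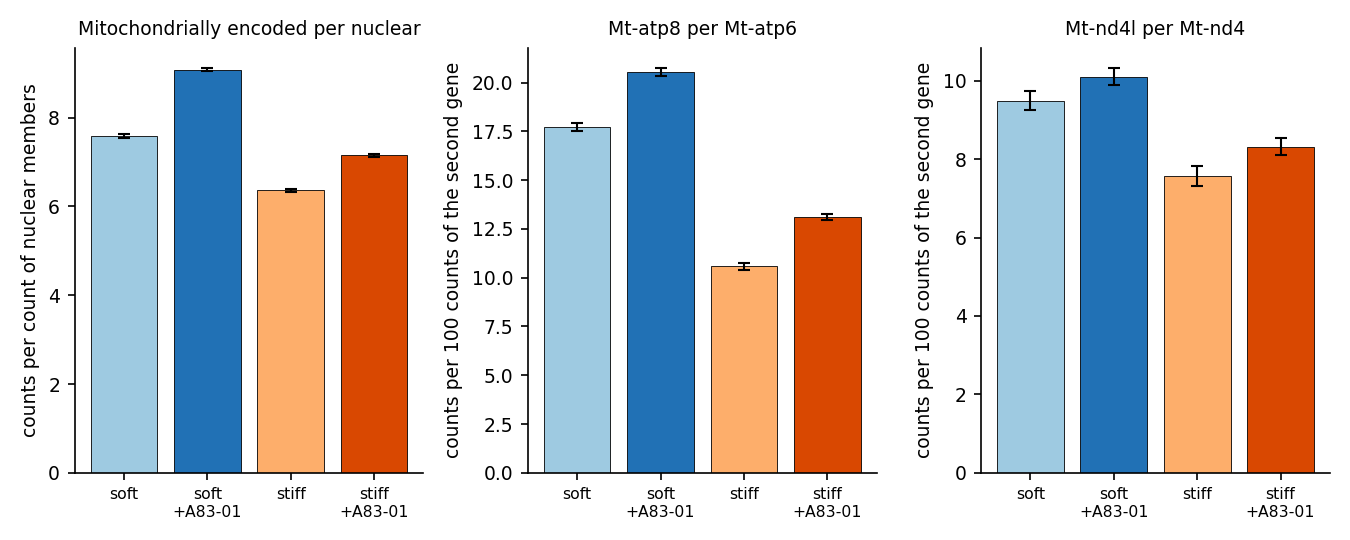
Ratios of counts within each library, with 95% exact binomial intervals (counting error only): mitochondrially encoded per nuclear counts, Mt-atp8 per 100 counts of Mt-atp6 and Mt-nd4l per 100 counts of Mt-nd4. The first is highest on soft with A83-01 (9.08) and lowest on stiff (6.36), and both gene ratios are lower on stiff than on soft.

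The 84 nuclear genes tested differed less between libraries than all 13634 genes tested, which were not matched to them in level. This was not particular to them. Of 74 mitochondrial ribosome genes, 1 was apart higher and 1 lower at 1.5-fold for stiff against soft, and at most 1 in any other pair. Stiff against soft, 65 of 84 lay above 0, with a median of 0.15, but scaling by total counts turned this to 31 of 84 and -0.08, because that scaling lowers every ratio of the pair by 0.23. With A83-01 in both, 55 of 84 lay above 0, with a median of 0.12. The inhibitor gave 67 of 84 above 0 on soft, median 0.14, and 54 of 84 on stiff, median 0.07, where total-count scaling gave 81 of 84 and 0.36. The difference between the median of the mitochondrially encoded genes and that of the nuclear genes does not depend on such scaling. It was -0.33 for stiff against soft, -0.44 with A83-01 in both, 0.34 for A83-01 on soft and 0.19 for A83-01 on stiff.

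Within 1.5-fold lay 80 of 84 nuclear genes for stiff against soft (95.2%, against 72.7% of all genes), 78 with A83-01 in both (92.9% against 72.8%), 78 for A83-01 on stiff (92.9% against 73.8%) and 80 for A83-01 on soft (95.2% against 87.4%). The interquartile range of their log2 ratios was 0.27, 0.34, 0.28 and 0.24 in those 4 pairs, against 0.64, 0.60, 0.59 and 0.35 over all genes. Apart at 1.5-fold for stiff against soft were 2 of 84 higher and 2 lower, where 10.9% of all genes were higher and 15.6% lower. With A83-01 in both there were 2 higher and 3 lower, against 13.5% and 13.1%. For A83-01 on stiff there were 5 higher and 1 lower (all genes 15% and 9.98%). For A83-01 on soft there were 3 higher and 0 lower (all genes 5.63% and 5.96%). In all, 7 nuclear genes were apart in at least 1 pair: the isoform genes Ndufa4l2, Cox4i2, Cox6a2 and Cox6b2, the complex I subunits Ndufa1 and Ndufv3, and the assembly factor Sdhaf3. The share of all genes apart in at least 1 pair was not computed, so these are given as names only. The 1 lower for A83-01 on stiff was Cox6a2, which was also 1 of the 2 higher for stiff against soft. It reached the expression minimum through stiff without the inhibitor alone, so its part in both counts is in part fixed by the filter.

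**Figure D3:**
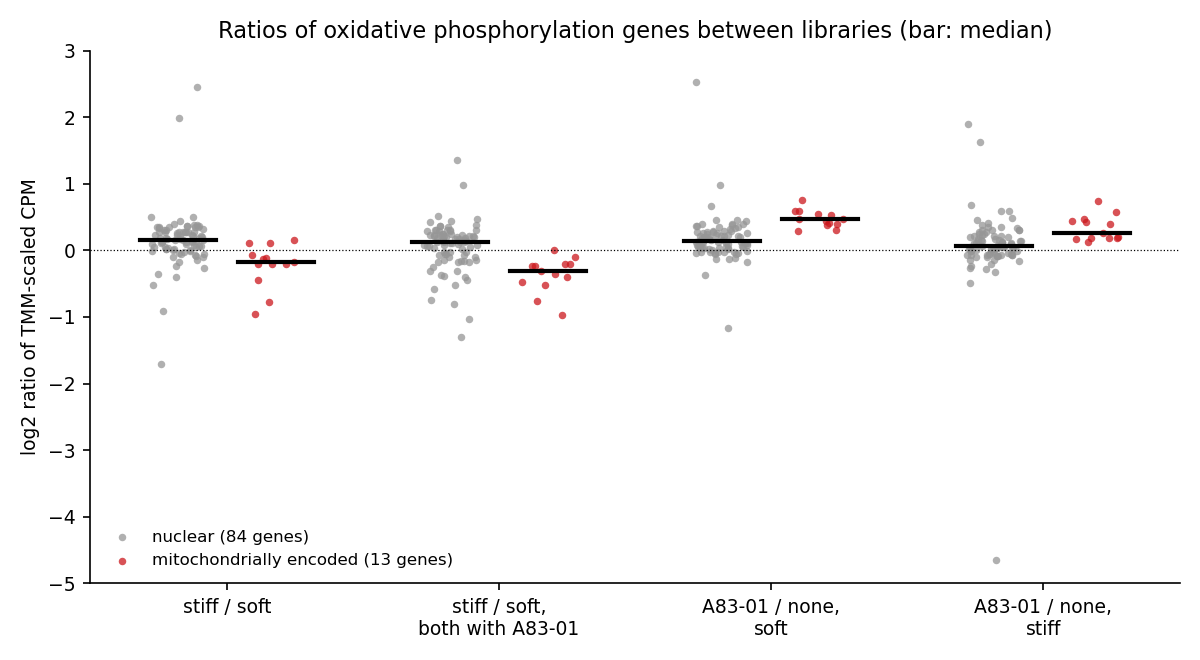
Log2 ratio of TMM-scaled CPM for each of the 84 nuclear and 13 mitochondrially encoded genes in 4 pairs of libraries, 1 point a gene, bars at the medians. Mitochondrially encoded genes lie lower than nuclear ones between matrices (medians -0.17 and 0.15, then -0.32 and 0.12) and higher with A83-01 (0.48 and 0.14 on soft, 0.26 and 0.07 on stiff). Total-count scaling moves the nuclear median for stiff against soft to -0.08.

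A test was made by fitting the 4 libraries with an additive model of stiffness and A83-01 (edgeR quasi-likelihood, Benjamini-Hochberg over all genes tested). It leaves 1 residual degree of freedom, which is the difference between the A83-01 responses on the 2 matrices. Its p-values are set against that difference, pooled in part over other genes, and not against a spread between cultures. A gene whose response to A83-01 depends on the matrix is thus less readily called. For stiffness, 1 of 97 oxidative phosphorylation genes tested rose and 1 fell, where 2.35% of all genes rose and 3.29% fell. No mitochondrially encoded gene was called, although Mt-nd4l (-0.77, edgeR adjusted p = 0.0535) and Mt-atp8 (-0.96, adjusted p = 0.0630) were near the threshold and passed it with limma-voom and DESeq2. For A83-01 none of the 97 was called in either direction by edgeR, where 0% of all genes rose and 0.044% fell. At an unadjusted p of at most 0.05 there were 13 above 0 (3 mitochondrially encoded, 10 nuclear) and 1 nuclear gene below, of 97, where 7.25% of all genes were higher and 6.04% lower. The gene below was Cox6a2, which reached the expression minimum through stiff without the inhibitor alone. DESeq2 called 4 higher, where it called 1.64% of all genes higher. With limma-voom 0 were called higher, where 0% of all genes were. The shared direction of the 13 mitochondrially encoded genes with A83-01 is therefore a description of these libraries.

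The gene that fell with stiffness was Ndufa4l2, a paralogue of the complex IV subunit Ndufa4 that is known as a target of hypoxia-inducible factor and as a marker of pericytes. It read 105, 207, 46.9 and 87.1 FPKM, from 3985, 7893, 1835 and 3396 counts. Both stiff libraries lay below both soft ones, and on each matrix the library with A83-01 lay above that without. In the additive model the stiffness term was -1.11 on the log2 scale (SE 0.161, edgeR adjusted p = 0.0326), and the A83-01 term was 0.79 (adjusted p = 0.194). The counterpart Ndufa4 read 73.3, 87.2, 62.6 and 73.1 FPKM, and its stiffness term was -0.15 (edgeR adjusted p = 0.560). Ndufa4l2 thus had 172, 285, 90.2 and 143 counts per 100 of Ndufa4, so that the order of the pair was turned only on stiff without the inhibitor.

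Cox4i2 is the isoform of complex IV subunit 4 found in lung, vascular smooth muscle and pericytes, and Cox4i1 the one in most tissues. Cox4i2 read 24.2, 38.3, 6.20 and 23.8 FPKM, with the stiff library well below the other 3. Cox4i1 read 201, 231, 206 and 285 FPKM. Per 100 counts of Cox4i1 there were 17.4, 24.0, 4.37 and 12.1 of Cox4i2. Its ratio of stiff to soft was 3.29-fold lower without A83-01 (interval 2.87 to 3.77) and 1.68-fold lower with it (1.55 to 1.82). With A83-01 it was 3.11-fold higher on stiff (2.72 to 3.57) and 1.59-fold higher on soft (1.47 to 1.72). The difference between those responses was 0.96 on the log2 scale (counting interval 0.74 to 1.19) and has no test, being the residual of the additive model. The stiffness term was -1.22 and did not pass (edgeR adjusted p = 0.0738). Cox4i2 and Ndufa4l2 shared the order of the libraries, highest on soft with A83-01 and lowest on stiff without it.

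**Figure D4:**
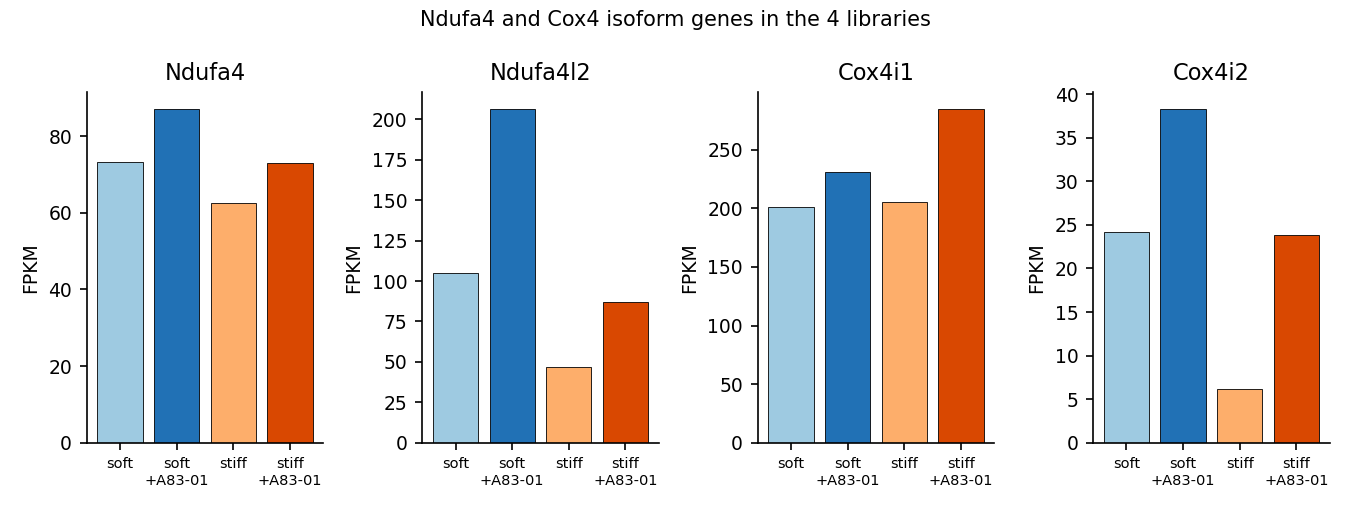
FPKM of Ndufa4 and Ndufa4l2 and of Cox4i1 and Cox4i2 in the 4 libraries, 1 bar a library and no error bars because each condition has 1 library. Ndufa4l2 (46.9 to 207) and Cox4i2 (6.20 to 38.3) are lowest on stiff, while Ndufa4 (62.6 to 87.2) and Cox4i1 (201 to 285) differ less.

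Hypoxia markers lay on the same side as both genes between matrices but not with A83-01 on stiff. Of 7 tested, all 7 lay below 0 on stiff in both matrix pairs. With A83-01 5 of 7 lay above 0 on soft, but on stiff 6 of 7 lay below 0, with a median of -0.58, where Ndufa4l2 was 1.51-fold and Cox4i2 3.11-fold higher. Their summed level was 2423, 2675, 1416 and 1080 CPM. Hif1a, the oxygen-regulated subunit of hypoxia-inducible factor, fell by 1.43 on the log2 scale (SE 0.180, edgeR adjusted p = 0.0253). Pericyte markers lay above 0 on stiff, 8 of 8 in both matrix pairs, the side opposite to both genes, and Rgs5 was among those called. With A83-01 3 of 8 lay above 0 on soft and 6 of 8 on stiff. The part of hypoxia markers and of pericyte content in the values of Ndufa4l2 and Cox4i2 was not tested.

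The other tissue isoforms of complex IV were scarce. Cox6a2, the heart and skeletal muscle form of subunit 6A, had 16, 6, 84 and 2 counts, against 8484, 10639, 8678 and 10839 of the common form Cox6a1. With A83-01 on stiff Cox6a2 was 51.5-fold lower, with a counting interval of 13.8 to 432. It read 0.478, 0.179, 2.89 and 0.0561 CPM, so only stiff without the inhibitor took it over the minimum of 1 CPM. That it was highest there and lower elsewhere is thus in part fixed by the filter. Skeletal muscle markers, 7 in the table, summed to 4.15, 4.03, 12.6 and 5.02 CPM, Cox6a2 itself included, with 3, 3, 2 and 2 of them at 0, and their part was not tested. Cox6b2, the testis form, had 86, 85, 97 and 181 counts, or 1.74, 1.33, 1.76 and 2.27 per 100 of Cox6b1. Cox7a1, the muscle form of subunit 7A, had 0, 3, 0 and 7 counts, against 1893, 2263, 1660 and 2558 of Cox7a2. Cox8b, another muscle form, and also Cox7b2, Cox8c, Ndufb4l1 and Cox6c-ps1 had 0 counts in every library, while Cox8a read 316, 379, 293 and 358 FPKM. A count of 0 allows up to 0.0896, 0.0895, 0.103 and 0.0842 CPM by a floor of 3 counts a library. These 6 genes were the ones that did not reach the expression minimum.

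The gene that rose with stiffness was Ndufa1, a small membrane-arm subunit that complex I needs for its assembly. It had 24, 149, 88 and 409 counts, or 0.815, 6.76, 2.42 and 17.7 FPKM. The order followed both factors, with A83-01 above none on each matrix and stiff above soft in each inhibitor state. The stiffness term was 1.66 (SE 0.296, edgeR adjusted p = 0.0495) and the A83-01 term 2.23 (adjusted p = 0.108). Ndufa1 was 6.20-fold higher with A83-01 on soft (interval 4.01 to 9.98) and 3.79-fold higher on stiff (3.00 to 4.83). Its mean of 6.93 FPKM lay far under the median of 44.9 FPKM over the 35 nuclear genes of complex I. Its FPKM did not follow its counts in proportion: 88 counts on stiff read 2.42 FPKM, and 149 on soft with A83-01 read 6.76 FPKM. The fold between libraries thus depends on the measure, and the reason was not tested. Reads shared with a near-identical copy elsewhere or an incomplete gene model were not examined, and the value is reported as uncertain. The call rests on an adjusted p just under 0.05, and DESeq2 size factors (adjusted p = 0.0633) or TMM factors without the mitochondrially encoded genes (0.0521) end it.

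Promoters of the nuclear genes are shown because many are known targets of nuclear respiratory factor 1 (NRF1), of the ETS factor GABP and of YY1. RefSeq windows from 250 bases before to 50 after the gene's start (build GRCr8, not the build of the counts) were matched for 78 of the 90 nuclear genes, 15 of them by an older name. The NRF1 letters GCGCANGCG, on either strand, were found in 19 of 78 windows (24.4%), against 5.80% of all 33469 windows in the table and 12.9% of those of genes tested here. The ETS letters CCGGAAGT stood in 8 (10.3%, against 3.81% and 7.98%) and the YY1 letters AAGATGGCG in 9 (11.5%, against 1.73% and 3.65%). The hypoxia response letters ACGTGC stood in 5 (6.41%, against 5.73% and 7.72%). A match is a string of letters, not a shown binding site, and its absence from a window says nothing of the factor. The 4 windows below, without the bases after the start, are those of Uqcrc1, which has 2 NRF1 matches (in capitals, beginning at -63 and -39 from the start; a YY1 match beginning at -1 runs past the start and is not marked), of both genes called for stiffness, and of Ndufa4, the paralogue of one of them. They are written on the gene's own strand, and the last 3 hold none of the motifs within the 250 bases.
Uqcrc1, chr8:118467973-118468222, plus strand: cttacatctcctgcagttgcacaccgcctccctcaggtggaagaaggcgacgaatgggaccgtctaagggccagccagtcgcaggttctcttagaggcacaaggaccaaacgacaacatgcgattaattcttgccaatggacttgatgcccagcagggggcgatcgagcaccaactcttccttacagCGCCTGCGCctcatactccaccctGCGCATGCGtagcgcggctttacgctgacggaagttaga
Ndufa4l2, chr7:65241919-65242168, plus strand: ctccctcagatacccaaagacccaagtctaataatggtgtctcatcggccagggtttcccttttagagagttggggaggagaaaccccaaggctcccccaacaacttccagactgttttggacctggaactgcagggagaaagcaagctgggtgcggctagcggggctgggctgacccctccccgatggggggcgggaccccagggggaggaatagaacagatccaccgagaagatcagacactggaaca
Ndufa4, chr4:40975560-40975809, minus strand: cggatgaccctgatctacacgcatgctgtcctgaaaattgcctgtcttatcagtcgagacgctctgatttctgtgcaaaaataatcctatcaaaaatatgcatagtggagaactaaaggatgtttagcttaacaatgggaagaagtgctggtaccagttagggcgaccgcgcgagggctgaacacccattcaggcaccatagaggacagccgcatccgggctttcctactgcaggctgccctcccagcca
Ndufa1, chrX:121293556-121293805, minus strand: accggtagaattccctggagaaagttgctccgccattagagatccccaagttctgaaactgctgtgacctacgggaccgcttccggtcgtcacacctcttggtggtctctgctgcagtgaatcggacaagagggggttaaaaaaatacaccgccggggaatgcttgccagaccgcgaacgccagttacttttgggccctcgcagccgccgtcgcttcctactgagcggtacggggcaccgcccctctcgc

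Among the other nuclear genes of complex I, Ndufb4 was the most abundant at 144, 152, 113 and 142 FPKM, and Ndufa13, an accessory subunit also known as Grim19, the least at 2.37, 2.80, 1.99 and 2.99 FPKM. For 6 core subunits of the matrix arm, the part of complex I that carries the flavin and the iron-sulfur clusters (Ndufs1, Ndufs3, Ndufs7, Ndufs8, Ndufv1, Ndufv2), the median log2 ratio was 0.29 for stiff against soft, with 5 of 6 above 0, and 0.27 with A83-01 in both, with 6 of 6. Under total-count scaling the first became 0.06, with 4 of 6 above 0. Ndufv2 was highest of them on stiff without the inhibitor, at 0.51, from 47.1, 47.9, 56.5 and 64.6 FPKM. Over 28 accessory subunits the medians were 0.14, which total-count scaling turned to -0.09, and 0.15. Ndufv3, at 2.98, 3.65, 2.45 and 2.11 FPKM, was 1.80-fold lower on stiff with A83-01 than on soft with it (interval 1.11 to 2.95).

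The 4 subunits of complex II all lay above 0 for stiff against soft, from 0.13 (Sdhb) to 0.38 (Sdhc), with a median of 0.24 that total-count scaling lowered to 0.0090, and all 4 also with A83-01 in both, with a median of 0.26. Sdhb, the iron-sulfur subunit and the most abundant of them, read 69.7, 61.8, 64.6 and 75.1 FPKM. The assembly factor Sdhaf3 was the least abundant gene of the complex, at 4.30, 5.50, 2.72 and 5.50 FPKM, and 1.63-fold higher with A83-01 on stiff (interval 1.12 to 2.41). Complex II, which has no mitochondrially encoded subunit, thus lay on the side of the nuclear genes.

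In complex III, the core proteins Uqcrc1 and Uqcrc2 and the iron-sulfur protein Uqcrfs1 lay above 0 in both matrix pairs, with medians of 0.28 and 0.15, and the first fell to 0.04 under total-count scaling. Uqcrc2 read 49.9, 48.4, 46.0 and 54.4 FPKM. The 5 small subunits had medians of -0.07 and 0.06, or -0.30 and 0.10 under total-count scaling. Uqcrh, the hinge protein that helps cytochrome c bind, was the most abundant at 110, 117, 88.4 and 149 FPKM. With A83-01 the core set had medians of -0.03 on soft and -0.06 on stiff, while the small subunits had 0.13 and 0.14. On stiff, total-count scaling turned the first set to 0.23 and raised the second to 0.43.

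The 11 common nuclear subunits of complex IV, Ndufa4 counted among them, all lay above 0 with A83-01 on soft, with a median of 0.26, and 8 of 11 on stiff, with a median of 0.17 that total-count scaling raised to 0.45. Between matrices 9 of 11 lay above 0, with a median of 0.10 that total-count scaling turned to -0.13, and with A83-01 in both 4 of 11, with a median of -0.06 (-0.02 under total-count scaling). Cox6a1 was the most abundant nuclear gene of all, at 384, 479, 382 and 478 FPKM. Cox6b1 read 204, 263, 221 and 322 FPKM and Cox7a2 98.3, 117, 83.8 and 130 FPKM, again higher with the inhibitor on each matrix.

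Of the ATP synthase, the 5 subunits of the catalytic head and central stalk (Atp5a1, Atp5b, Atp5c1, Atp5d, Atp5e) lay above 0 in both matrix pairs, with medians of 0.27 and 0.22. Total-count scaling lowered the first to 0.04. Atp5b, the catalytic beta subunit, was the most abundant at 283, 282, 306 and 380 FPKM. The 3 genes of the c subunit, which encode one mature protein of the rotor ring, differed among themselves: Atp5g1 read 72.2, 86.1, 79.9 and 97.6 FPKM, Atp5g2 213, 205, 200 and 253, and Atp5g3 99.5, 120, 83.3 and 110. Atp5g2 was the most abundant of them in every library. With A83-01 on soft, Atp5g1 (0.26) and Atp5g3 (0.28) lay above 0 and Atp5g2 at -0.05. Atp5s, the least abundant gene named for this complex, read 2.16, 2.34, 2.13 and 2.16 FPKM. None of these groups holds a gene called in the additive fit apart from Ndufa1, and the groups themselves were drawn up with the values in view.

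**Figure D5:**
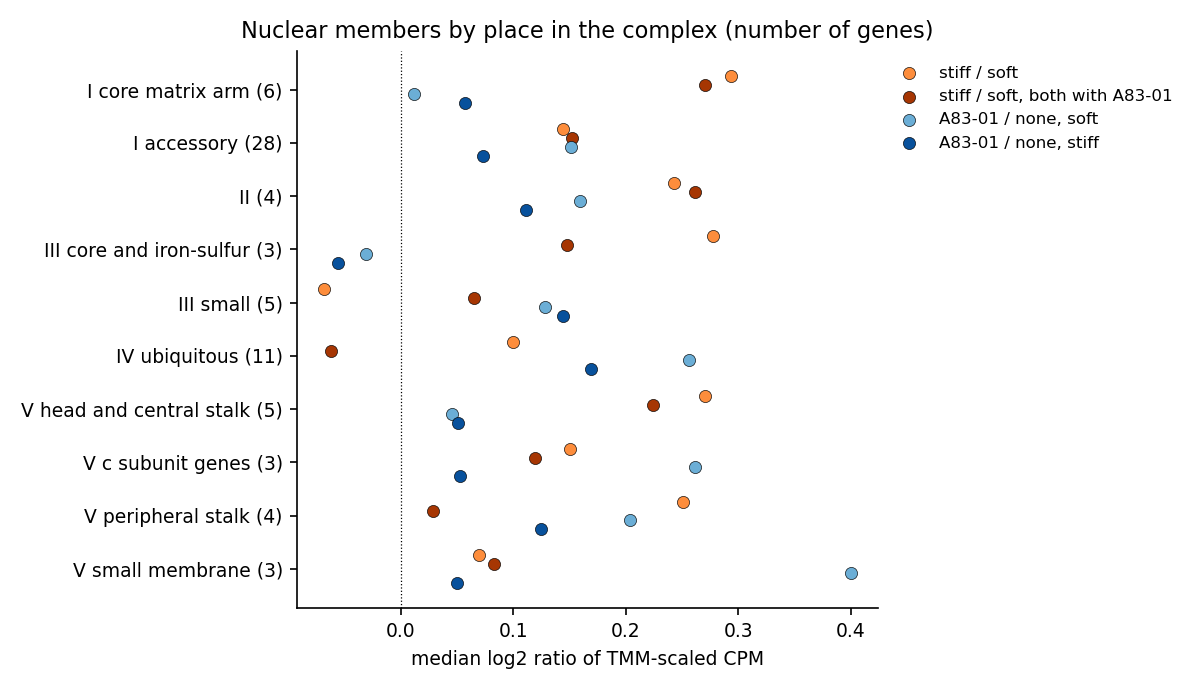
Median log2 ratio of TMM-scaled CPM in 4 pairs of libraries for nuclear genes grouped by their place in the complex, with the number of genes in brackets. For stiff against soft the core matrix arm of complex I (0.29), complex III core (0.28) and ATP synthase head (0.27) lie furthest right, and with total-count scaling that pair moves left by 0.23, which takes the medians of the accessory, complex IV, c subunit and small membrane groups below 0.

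Across the 84 nuclear genes, the log2 ratio and the implied transcript length had a Spearman correlation of 0.36 for stiff against soft, 0.34 with A83-01 in both, -0.24 for A83-01 on stiff and -0.38 for A83-01 on soft. Pearson's r with log2 length was 0.07, 0.23, -0.01 and -0.17. These are over genes that share the same libraries, and are given as a description with no test.

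Other genes of the pathway were taken from lists. Total-count scaling shifts log2 ratios by -0.23 for stiff against soft, 0.04 with A83-01 in both, 0.28 for A83-01 on stiff and 0.01 on soft, and the medians of these lists with them. At an unadjusted p of at most 0.05, 12.1% of all genes were higher and 13.2% lower with stiffness, and 7.25% higher and 6.04% lower with A83-01. By edgeR adjusted p, 2.35% of all genes rose and 3.29% fell with stiffness, and 0% rose and 0.044% fell with A83-01. The list of assembly factors is not wholly separate, as it includes Sdhaf1 to Sdhaf4, which are also among the 84 nuclear genes above. Of 41 assembly factors of the complexes tested, 0 passed in either direction for stiffness (edgeR adjusted p), with 2 higher and 5 lower at an unadjusted p of at most 0.05, and the median log2 ratio was -0.04 for stiff against soft. Cox14 and Cox17, which serve complex IV, were the most abundant of them, at means of 32.0 and 30.1 FPKM. The hypoxia-inducible Higd1a had a stiffness term of -1.08 that did not pass (edgeR adjusted p = 0.0521). Of 25 genes of mitochondrial DNA and RNA maintenance, 0 passed, with 1 higher and 0 lower unadjusted. Of these, 15 of 25 lay below 0 for stiff against soft, with a median of -0.09, and 19 of 25 with A83-01 in both, with a median of -0.11. The RNA-binding proteins Fastk and Grsf1 were the most abundant of these, at 40.7 and 22.3 FPKM. Tfam, which packages mitochondrial DNA and starts its transcription, had 867, 763, 582 and 795 counts. For A83-01 none of either list passed in edgeR, with 1 and 0 higher and 0 and 0 lower unadjusted, and medians on soft of 0.07 and -0.02.

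Of 15 regulators of mitochondrial biogenesis, 1 fell with stiffness, Hif1a, where 3.29% of all genes fell. At an unadjusted p of at most 0.05 there were 0 higher and 3 lower. Ppargc1a, the coactivator PGC-1 alpha, had 234, 325, 16 and 147 counts, with the stiff library lowest, and its stiffness term of -2.24 did not pass (edgeR adjusted p = 0.111). Of 24 genes of the citric acid cycle and pyruvate entry, 1 fell, Pdk1, the kinase that turns off pyruvate dehydrogenase, by 0.98 on the log2 scale (SE 0.156, edgeR adjusted p = 0.0385). Unadjusted, 3 were higher and 1 lower with stiffness. Over that list, Pdk1 included, 19 of 24 lay above 0 for stiff against soft with a median of 0.16, which the shift of -0.23 under total-count scaling takes below 0. Of 23 carriers and related genes 0 passed for stiffness, with 4 higher and 1 lower unadjusted. The adenine nucleotide carrier Slc25a4 (mean 224 FPKM) and the phosphate carrier Slc25a3 (167 FPKM) were the most abundant.

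Of 74 proteins of the mitochondrial ribosome 0 passed for stiffness, with 2 higher and 2 lower unadjusted, and their median was 0.16 for stiff against soft, also below 0 under total-count scaling, and 0.09 with A83-01 in both. Mrpl17 and Mrpl33 were the most abundant, at means of 69.0 and 65.1 FPKM. Cytosolic ribosomal proteins, 84 short and abundant nuclear messengers, were taken for comparison. For stiff against soft 77 of 84 lay above 0, with a median of 0.46, and for A83-01 on stiff 83 of 84 below, with a median of -0.48. They held 4.22%, 3.90%, 4.98% and 4.22% of counts, so their order over the libraries was not that of the mitochondrially encoded genes. In the additive fit 1 of them rose with stiffness, Rps18l1, and 1 fell, Rplp2, and both belong to families with copies whose reads may be shared. Of all genes 2.35% rose and 3.29% fell. Unadjusted, 10 of the 84 were higher and 2 lower with stiffness. For A83-01 edgeR called 0 genes in each of these last 5 lists. At an unadjusted p of at most 0.05 there were 0 higher and 2 lower among biogenesis regulators, 1 and 0 in the citric acid cycle list, 2 and 0 among carriers, 0 and 0 in the mitochondrial ribosome and 0 and 6 among cytosolic ribosomal proteins.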

How the data were processed

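Per the labels' protocols, RNA was taken with Trizol, mRNA was enriched with oligo(dT) beads and primed with random hexamers, and paired reads were made on DNBSEQ-T7. The authors deposited unnormalised counts per gene, and FPKM values in a separate table. Per the submitters' processing notes, HISAT2, edgeR and build Rnor_6.0 were used. Neither read counter nor annotation is given in the sources used here. Counts were scaled by TMM, and 13634 genes with at least 1 CPM in at least 1 library were kept. R 4.3.3, edgeR 4.0.16, limma 3.58.1 and DESeq2 1.42.0 were used, and scripts were tested on simulated data. The additive fit had 1 residual degree of freedom. FPKM was used for levels between genes. Intervals cover counting error only. Named genes were all mitochondrially encoded ones, nuclear ones called or at least 2-fold apart, the most and least abundant of each complex, isoform pairs, and called or the 2 most abundant genes of other lists; other genes (Ndufv2, Ndufv3, Sdhc, Tfam, Higd1a, Ppargc1a) were named after their values were seen. A gene of complex I that is counted in the totals is not reported here by itself or in the groups by place in a complex. Members and lists were chosen with earlier results of these data known. Alternatives were other scalings, tests, filters, prior counts and the FPKM table.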

Additional observations from a re-analysis of the deposited data

How the results depend on the processing

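Scaling mattered most. By total counts, 5 of 97 genes were called lower with stiffness (8.32% of all genes), 8 higher (4.12%) and 1 lower (1.98%) with A83-01, and 7 were at least 1.5-fold lower on stiff (24.2%) and 22 higher with A83-01 on stiff (26.4%). Of those called, 3 of the 5 and 5 of the 8 were mitochondrially encoded, so that no such gene is called holds under TMM but not here. The 1 lower with A83-01 was Cox6a2. The nuclear median for stiff against soft reversed to -0.0814 (-0.0809 in FPKM), and the nuclear median for A83-01 on stiff was 0.36 (0.37 in FPKM). The mitochondrially encoded medians became -0.41, -0.28, 0.54 and 0.49 for stiff against soft, the same with A83-01, A83-01 on stiff and A83-01 on soft. In FPKM the first 3 were -0.42, -0.26 and 0.56, and 8 genes were lower on stiff (24.1% of all genes), 22 higher with A83-01 on stiff (26.8%) and 1 lower with A83-01 on soft (5.91%). DESeq2 size factors gave -0.16 for the first and called 0 oxidative phosphorylation genes higher with stiffness (1.77% of all genes). TMM without mitochondrially encoded genes also called 0 of them higher (2.2%).

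Genes called lower with stiffness numbered 4 by DESeq2 (5.41% of all genes), 3 by limma-voom (4.56%), 2 with every counted gene kept (3.12%) and 0 with the inhibitor left out of the model (0.125%), which also called 0 higher (0.0953%). DESeq2 called 4 higher with A83-01 (1.64%). At 2-fold, 2 genes were higher (5.33% of all genes) and 1 lower (8.58%) on stiff, 1 higher (6.88%) and 1 lower (6.72%) with A83-01 in both, 2 higher (7.80%) and 1 lower (4.47%) with A83-01 on stiff, and 1 higher (2.18%) and 0 lower (2.44%) on soft. Cox6a2 is among the 2 higher on stiff and is the 1 lower with A83-01 on stiff. It passed the filter through stiff without the inhibitor alone. Without the 10 most abundant other genes, the mitochondrially encoded share was 5.43%, 7.06%, 4.88% and 6.21%. Taking nuclear subunits only, an alternative chosen after seeing the data, gave nuclear medians of 0.15, 0.13, 0.09 and 0.14 in the order above. No paired analysis was possible because each condition has 1 library, and leaving one out leaves the additive fit no residual degree of freedom. Depth limits the scarce isoforms (Cox6a2, Cox7a1), and 1 library a condition limits every comparison.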

Other observations

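Among the mitochondrially encoded counts themselves, Mt-co1 took 33.6%, 31.2%, 37.8% and 36.5% in the same order of libraries, so that its share was higher in both stiff libraries. Mt-nd6, alone on its strand, had 22.9, 25.5, 21.5 and 23.1 counts per 100 of Mt-nd5, its neighbour on the other strand, a narrower range than that of Mt-atp8 per Mt-atp6. The supercomplex factor Cox7a2l read 117, 107, 140 and 138 FPKM and was higher in both stiff libraries, and Sdhaf1, which helps insert iron-sulfur clusters into complex II, read 23.7, 18.2, 13.99 and 14.3 FPKM and was lower in both. Both were chosen after their values were seen, and neither passed the edgeR test for stiffness (adjusted p = 0.187 and 0.148).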
